A study of Mus musculus with 6 samples.

Results

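The nuclear factor I (NFI) family of the mouse comprises 4 genes, Nfia, Nfib, Nfic and Nfix, and its open chromatin was followed from day 0 to day 1 of brown adipocyte differentiation. Accessibility was read by ATAC-seq, in which a transposase cuts and tags open DNA, so that sequenced fragments pile up into peaks where chromatin is accessible. A peak was assigned to a member when its summit lay inside the gene's span in mm10, or when the nearest end of any coding gene belonged to that member and lay within 100 kb. By this rule 209 of the 192614 peaks called in the 6 libraries belonged to the family. Where peaks of different libraries overlapped by at least 1 bp they were merged, which gave 73 NFI regions among 68913 in all. The 4 members were taken by name out of 21883 coding genes, and the rule for peaks uses their positions and not their heights.

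NFI proteins are transcription factors that bind DNA as dimers, at a palindrome made of a TTGGC arm and its inverse GCCAA, and each arm alone can be bound with lower affinity. Nfia is known as a driver of the brown fat programme: it binds enhancers together with the adipogenic regulator PPARγ, opens chromatin there and holds muscle genes down. Nfib is best known from lung and brain maturation and from stem cells of the hair follicle, Nfic from tooth root formation, and Nfix from the switch between embryonic and fetal muscle and from neural stem cells. Accessibility at the genes themselves bears on the regulatory DNA of the family, and neither RNA nor protein was measured in the libraries used here.

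All 6 libraries came from mouse cells labelled as brown pre-adipocytes, the precursors of brown fat cells, with BAT given as both source and cell line. The 3 day 0 libraries were labelled wild type, and the 3 day 1 libraries carried the label of brown adipocyte differentiation at day 1, with no genotype of their own. The series title concerns deletion of RUNX1 or RUNX2, and no sample labelled as deleted was analysed here. The sex, age and strain of the source animals, the clonality of the line and the differentiation medium are not given in the sources used here, nor whether the replicates are separate cultures. Each p-value below therefore speaks to variation among these 6 libraries, part of which may be technical.

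Depth and list length moved with the day. Day 0 libraries held 8127635 to 11011889 fragments and 39211 to 55511 peaks, and day 1 libraries 4919755 to 7302457 fragments and 12556 to 23274 peaks. Day 1 replicate 3 stood apart: it gave 1719 peaks per 1000000 fragments, against 4079 to 5167 in the other 5 libraries. For this reason the members' counts are given from the deposited lists, per 10000 peaks of the list, and in equal lists, where each library keeps its 12556 strongest peaks by −log10 q. Peaks within 1 kb of a gene end were called for 1 to 5 of 9 preadipocyte and mesenchymal markers per library (4 or 5 at day 0, 1 to 3 at day 1) and for 2 to 4 of 5 adipocyte markers (2 or 3 at day 0, 3 or 4 at day 1). No library had such a peak at the 4 brown adipocyte markers Ucp1, Cidea, Dio2 and Prdm16, nor at the mesenchymal markers Pdgfra, Dlk1, Cd34 and Thy1. Endothelial and immune markers had at most 1 of 5 per library and muscle markers at most 1 of 4, against 31.9% to 50.2% of all coding genes.

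Start sites of NFI transcripts were looked up in RefSeq (GRCm38.p6, the same coordinates as mm10), which listed 6 windows for Nfia, Nfic and Nfix and none for Nfib. None of these windows overlapped an NFI region, so the sequences lie outside the deposited peaks of the family. Whether these start sites were in use in the cells was not measured. Below are the 250 bases before the listed start of Nfia, before the Nfix start closest to a region, and before the Nfix start with the most NFI core motifs. Capitals mark matches to TTGGC or TGGCA on either strand (GCCAA or TGCCA when read on the other strand).

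Nfia chr4:97581693-97581942 plus strand: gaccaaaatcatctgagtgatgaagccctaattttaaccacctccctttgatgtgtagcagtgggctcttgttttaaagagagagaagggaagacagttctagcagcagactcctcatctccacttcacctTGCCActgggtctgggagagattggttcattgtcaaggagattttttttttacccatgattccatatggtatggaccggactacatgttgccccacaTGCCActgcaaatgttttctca

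Nfix chr8:84773411-84773660 minus strand: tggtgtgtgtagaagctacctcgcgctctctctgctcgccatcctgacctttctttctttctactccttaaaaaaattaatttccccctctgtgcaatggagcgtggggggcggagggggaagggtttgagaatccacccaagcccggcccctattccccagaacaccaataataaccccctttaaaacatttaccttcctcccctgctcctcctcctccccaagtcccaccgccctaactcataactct

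Nfix chr8:84775829-84776078 minus strand: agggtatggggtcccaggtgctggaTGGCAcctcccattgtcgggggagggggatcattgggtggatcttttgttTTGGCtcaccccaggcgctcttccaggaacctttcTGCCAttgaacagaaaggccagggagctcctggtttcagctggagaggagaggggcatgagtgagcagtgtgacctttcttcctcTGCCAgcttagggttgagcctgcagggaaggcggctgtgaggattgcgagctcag

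The Nfia window held 2 matches to TGGCA, and its nearest region lay 16.7 kb away at chr4:97564918-97565027, called in 1 day 0 library. The first Nfix window held neither core motif and lay 266 bp from chr8:84773927-84774130, a region called in all 3 day 0 and no day 1 library. The second Nfix window held 1 match to TTGGC and 3 to TGGCA, and lay 909 bp from chr8:84774440-84774919, called in 3 day 0 libraries and 1 day 1 library. Short motifs of this kind are common: TTGGC was found in 41.5% and TGGCA in 42.8% of the 32851 upstream windows of the same length, and at least 1 of them in 61.5%. The full palindrome, a TTGGC arm and its inverse with 5 bases between them, was in 0.0365% of all windows and in none of the 6 NFI windows. A match to TGTGGT, a RUNX core motif, was in 14% of all windows and in 1 of the 6, that of Nfix at chr8:84772876-84773125.

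Most NFI regions lay inside a member and over 1 kb from its ends. The rule takes every summit inside a member, so a place in the gene body is partly built in. Of the 73 regions, 60 lay inside a member and 13 outside. Only 2, or 2.74%, had their summit within 1 kb of an end of their own gene, against 18.4% of all regions within 1 kb of a coding gene's end. These shares are not alike, since the first counts only the ends of the member itself. Nfia alone held 23 of the 24 NFI regions that lay inside a gene and over 100 kb from both of its ends. NFI regions had a median width of 325 bp, against 308 bp for all regions. Exons are not listed in the gene table used, so exonic and intronic positions were not separated.

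**Figure D1:**
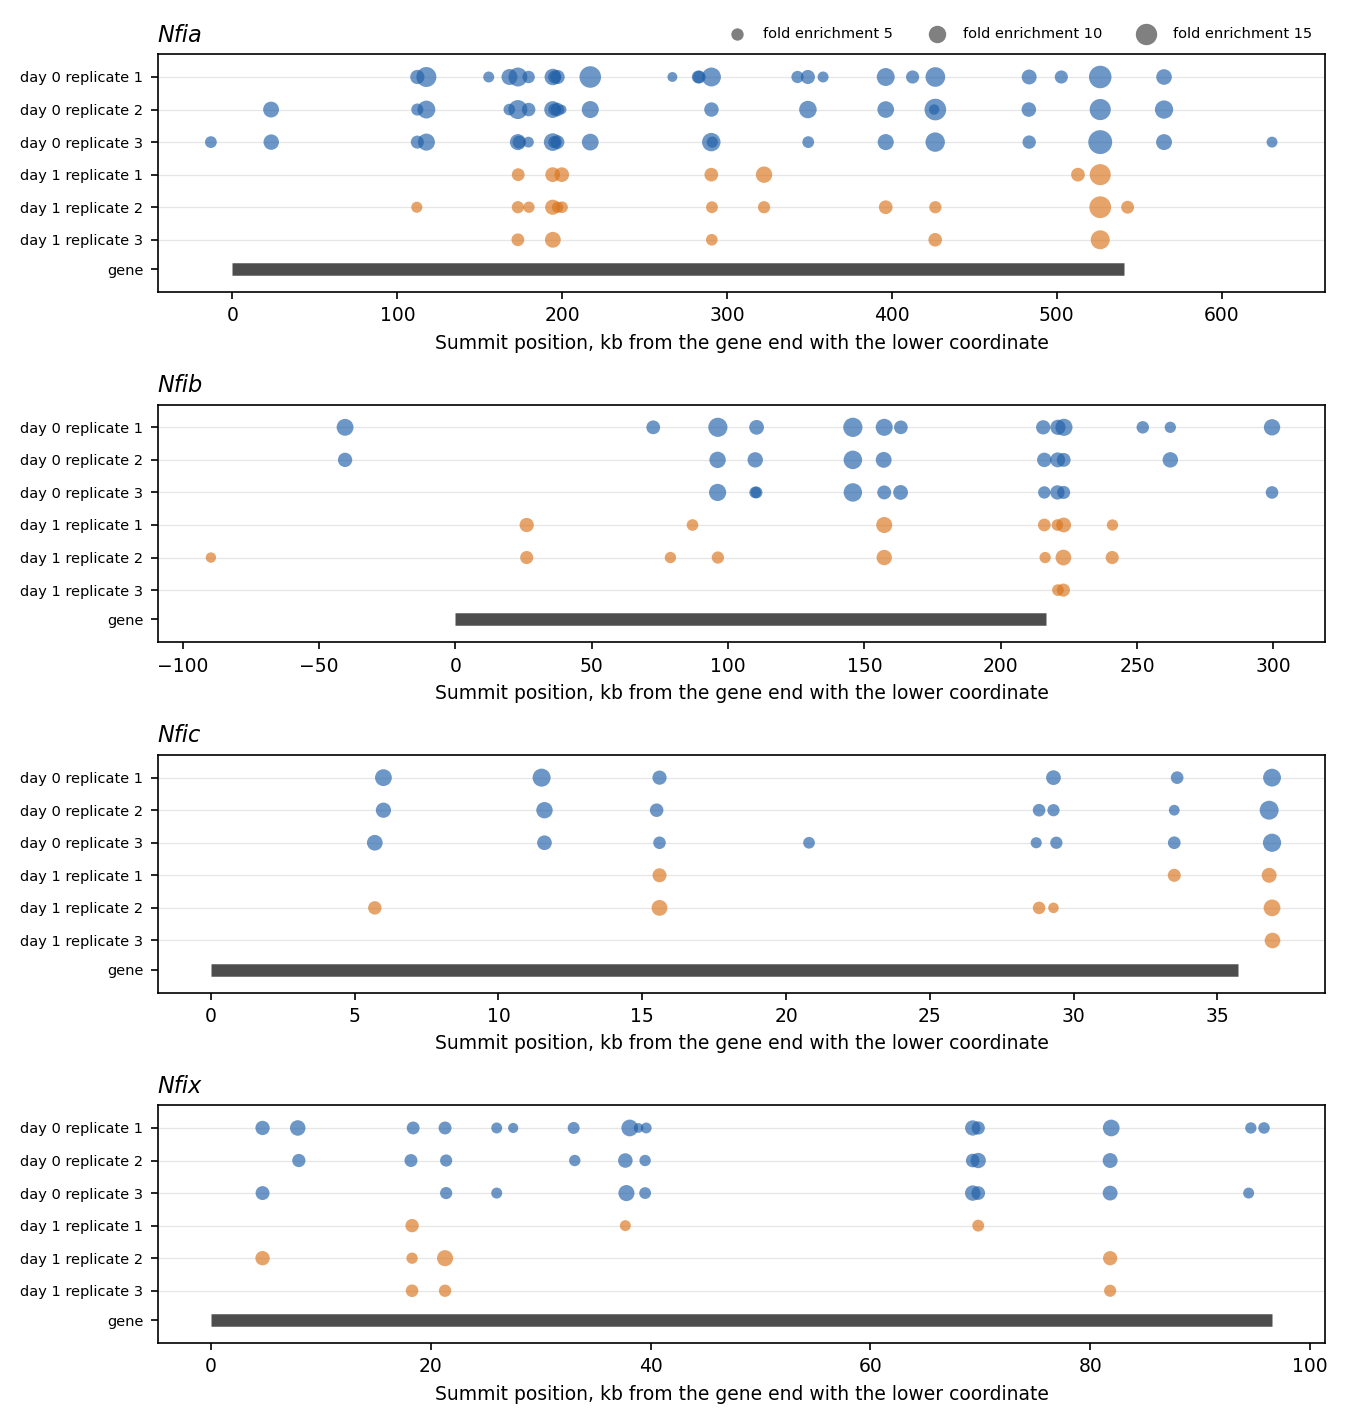
Positions of NFI peaks in each library. Each row is 1 library (blue day 0, orange day 1), the horizontal axis gives the summit's distance in kb from the gene end with the lower coordinate, the area of a circle is proportional to the authors' fold enrichment, and the grey bar is the gene. Day 1 rows hold fewer circles at all 4 genes, and the Nfia peak at 526 kb is large in all 6 rows.

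Every member had more peaks at day 0 than at day 1 in the deposited lists, with no overlap between the days. Per 10000 deposited peaks the days overlapped for every member. The day 0 mean was still higher there at Nfia (4.65 against 4.21), Nfic (1.6 against 1.48) and Nfix (2.38 against 1.87), and lower at Nfib (2.35 against 2.84). The 4 genes together had 58, 44 and 47 peaks at day 0 and 20, 29 and 11 at day 1, a ratio of the means of 2.48. All 4 members were above at day 0 in every library, and so were 33.7% of the 15794 genes with any peak and 85.2% of the 1171 genes with a mean of at least 5 peaks per list, to which all 4 belong. The 4 of 4 is thus to be read against 85.2%. Per 10000 peaks of the list the family had 10.4, 10.5 and 12 at day 0 and 9.97, 12.5 and 8.76 at day 1. These values overlapped, at 11 ± 0.88 and 10.4 ± 1.89 (SD, n = 3 each). No member kept its days apart on this scale, where 13.7% of genes were above at day 0 and 21% above at day 1 without overlap, or 27.6% and 10.8% of the genes with at least 5 peaks. Without day 1 replicate 3 the day 1 mean of the family was 11.2 per 10000, above and not below that of day 0. For 3 libraries against 3, the smallest two-sided p of the exact permutation test is 0.1.

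In equal lists the family had 12, 7 and 10 peaks at day 0 and 12, 10 and 11 at day 1. The days overlapped for the family and for each member, where 6.66% of genes were above at day 0 and 6.53% above at day 1. Fewer peaks at NFI genes thus went together with the shorter lists of day 1, and depth and day cannot be told apart in the deposited counts. In a pool of cells, fewer cells with an open site and less opening per cell cannot be told apart either.

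**Figure D2:**
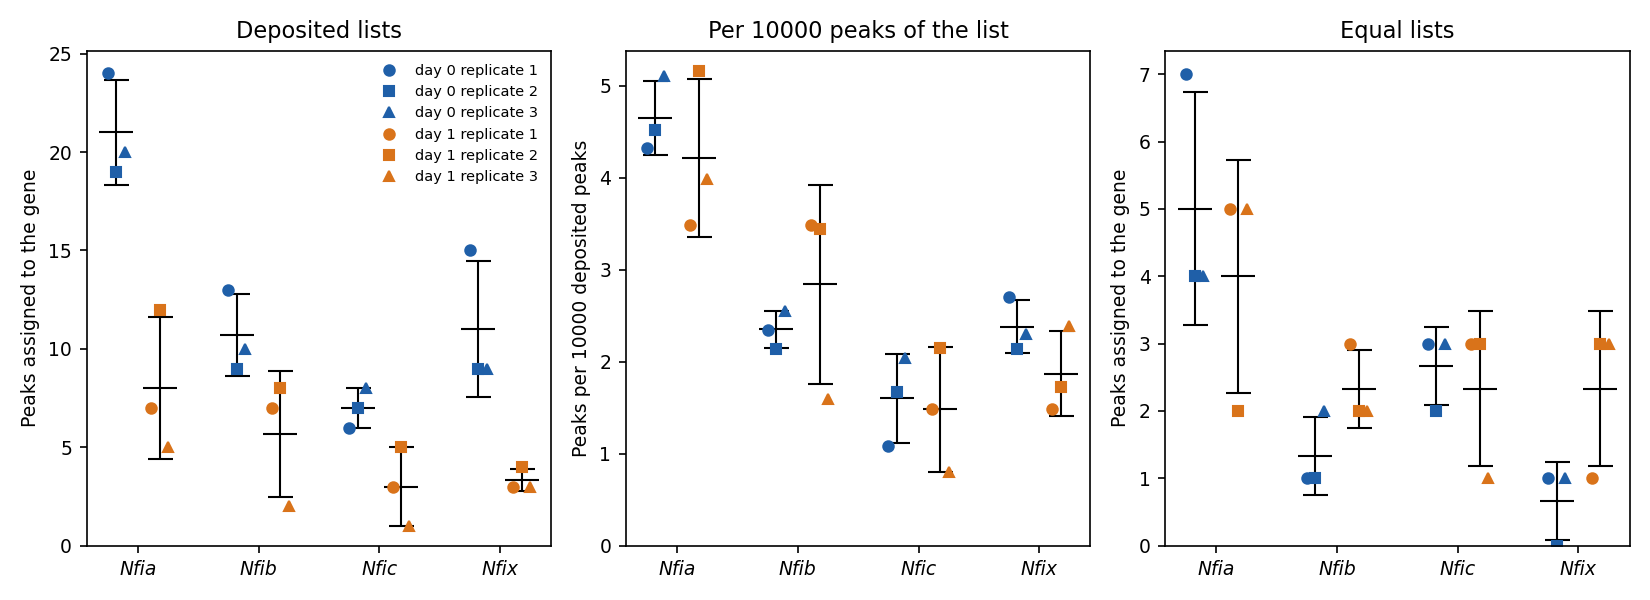
Number of peaks assigned to each NFI gene, in the deposited lists (left), per 10000 peaks of the list (middle) and in equal lists of the 12556 strongest peaks (right). Points are libraries (blue day 0, orange day 1; the marker shape gives the replicate number), long bars the mean and short bars 1 SD over 3 libraries. The days are separate for all 4 genes on the left and for none in the other panels.

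Per length, Nfic and Nfix were the densest members. At day 0 Nfic had 14, 16.8 and 19.6 peaks per 100 kb of gene body and Nfix 15.5, 9.32 and 9.32, and these ranges overlapped. Nfia followed with 4.25, 3.33 and 3.14 and Nfib with 3.23, 2.31 and 3.23, which overlapped each other and lay below both denser genes. All coding genes together held 2.87, 2.17 and 2.03. At day 1 Nfix had 3.11, 4.14 and 3.11 peaks per 100 kb, above Nfia at 1.29, 2.03 and 0.925 and Nfib at 1.85, 2.31 and 0 in every library. Nfic, with 5.6, 11.2 and 0, overlapped the other 3 at day 1. In peaks per gene the order of the day 0 means was Nfia at 21, Nfix at 11, Nfib at 10.7 and Nfic at 7, where Nfix and Nfib overlapped. By these means Nfia stood above 99.7% of genes with any peak on both days, and Nfic above 91.6% at day 0 and 91.8% at day 1.

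Nfia (gene ID 18027), the member tied to brown fat, spans 541 kb at chr4:97578066-98118876 and carried 32 of the 73 regions. It had 24, 19 and 20 deposited peaks at day 0 and 7, 12 and 5 at day 1 (21 ± 2.65 against 8 ± 3.61, SD, n = 3 each, exact permutation p = 0.1). Per 10000 peaks Nfia had 4.32, 4.52 and 5.1 against 3.49, 5.16 and 3.98, with overlap, and the exact permutation p was 0.5. In equal lists it had 7, 4 and 4 against 5, 2 and 5 (exact permutation p = 0.6). Its strongest region on both days was chr4:98104066-98104631, inside the gene 14.6 kb from the upper end. The authors' fold enrichment there was 16.7, 14.7 and 18.8 at day 0 and 14.6, 15.6 and 11.9 at day 1, and it exceeded 92.4% to 97.8% of the peaks of each list in −log10 q. A further Nfia region, chr4:97772102-97772601, was also in all 6 equal lists, with fold enrichment of 8.98, 9.36 and 10.3 against 7.18, 7.54 and 8.25.

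Other Nfia regions were in every day 0 list and in no day 1 list. There were 6 of these among 32 in the deposited lists, 18.8%, against 17.5% of all regions, and 0 in the equal lists against 9.11%, so neither share says anything particular about Nfia. The regions described in this paragraph were picked after their values were seen. The highest of the 6 by mean fold enrichment was chr4:97794950-97795163, 217 kb from the lower gene end, at 15.3, 9.56 and 9.28. It was followed by chr4:97695500-97695716 with 13.1, 10.5 and 9.6, and both sat at or above the 61.9% point of each day 0 list by rank. A further strong day 0 region, chr4:98003965-98004619, was called on both days, with fold enrichment of 12.7, 15.4 and 12.4 at day 0, no peak in day 1 replicate 1, and 4.94 and 6.07 in day 1 replicates 2 and 3. In the opposite direction, chr4:97900360-97900768 had no day 0 peak and 8.82 and 4.94 in day 1 replicates 1 and 2. No Nfia region was in all 3 day 1 lists and no day 0 list. No library had a peak within 1 kb of either end of Nfia.

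Nfib (gene ID 18028) spans 217 kb at chr4:82290173-82506751, on the same chromosome as Nfia, and carried 18 regions, 8 of them outside the gene. It had 13, 9 and 10 deposited peaks at day 0 and 7, 8 and 2 at day 1 (10.7 ± 2.08 against 5.67 ± 3.21, SD, n = 3 each, exact permutation p = 0.1). Day 1 replicates 1 and 2 came within 1 or 2 peaks of the lowest day 0 library, and replicate 3 was far below. Per 10000 peaks Nfib had 2.34, 2.14 and 2.55 at day 0 and 3.49, 3.44 and 1.59 at day 1, where replicates 1 and 2 lay above all of day 0 and replicate 3 below (exact permutation p = 0.4). In equal lists it had 1, 1 and 2 against 3, 2 and 2 (exact permutation p = 0.3). Nfib was the one member with a region at a gene end on both days. This was chr4:82505596-82506543, whose summit lay 0.974 kb inside the upper end, with fold enrichment of 6.73, 6.9 and 5.06 at day 0, 5.31 and 4.19 in day 1 replicates 1 and 2, and no peak in replicate 3. The strand of Nfib is not given in the sources used here, so this end was not called its start.

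Beyond that end, 6.62 kb outside the gene, chr4:82513080-82513436 was the one Nfib region in all 6 deposited lists. The authors' fold enrichment there was 9.64, 6.34 and 5.61 at day 0 and 7.24, 8.16 and 5.66 at day 1, and the days overlapped. Nfib had 2 regions of 18 in all 3 day 0 lists and no day 1 list, 11.1% against 17.5% of all regions. The stronger was chr4:82435748-82436180, inside the gene, at 12.2, 11.3 and 11.2. Another 2 regions were in day 1 replicates 1 and 2 and in no day 0 list: chr4:82316256-82316452, inside the gene, with fold enrichment of 6.68 and 5.64, and chr4:82531061-82531264, outside it, with 4.22 and 5.68. With Nfia, the family had 3 regions in at least 2 day 1 lists and no day 0 list, 4.11% of 73 against 2.01% of all regions. These Nfib regions, apart from the shared one, were picked after their values were seen.

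Nfic (gene ID 18029) is the shortest member, with 35.7 kb at chr10:81396191-81431919, and carried 8 regions. It had 6, 7 and 8 deposited peaks at day 0 and 3, 5 and 1 at day 1 (7 ± 1 against 3 ± 2, SD, n = 3 each, exact permutation p = 0.1). Per 10000 peaks it had 1.08, 1.67 and 2.04 against 1.49, 2.15 and 0.796, with overlap (exact permutation p = 0.8). In equal lists it had 3, 2 and 3 against 3, 3 and 1 (exact permutation p = 1). Nfic held the family's only region that was day 0 only in the equal lists, chr10:81407630-81407926, inside the gene and 11.5 kb from the lower end. Its fold enrichment was 10.7, 8.83 and 7.09 at day 0, where it ranked at 93.6%, 87.2% and 72.8%, and no day 1 library had a peak there in either kind of list. It was 1 of 26 NFI regions of the equal lists, 3.85%, where 9.11% of all regions were in this class. No NFI region was day 1 only in these lists, against 5.71% of all regions.

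The strongest Nfic region was shared by both days. This was chr10:81432791-81433196, 1.13 kb beyond the upper gene end, with fold enrichment of 10.5, 11.8 and 10.9 at day 0 and 7.36, 9.25 and 8.05 at day 1. It ranked from 71.1% to 94.3% in the 6 lists and was the only Nfic peak of day 1 replicate 3. A peak within 1 kb of the lower end of Nfic was called in day 0 replicate 1, but lay nearer to another coding gene and was not counted for Nfic.

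Nfix (gene ID 18032) spans 96.5 kb at chr8:84704712-84801238 and carried 15 regions, all inside the gene. The gene borders Lyl1, a blood cell transcription factor gene, and 10 of the 15 summits were nearest to an end of Lyl1 and counted for Nfix because they lie inside it. Nfix had 15, 9 and 9 deposited peaks at day 0 and 3, 4 and 3 at day 1 (11 ± 3.46 against 3.33 ± 0.577, SD, n = 3 each, exact permutation p = 0.1), a ratio of 3.3, the highest of the 4 genes. Per 10000 peaks it had 2.7, 2.14 and 2.3 against 1.49, 1.72 and 2.39, where day 1 replicate 3 lay inside the day 0 range (exact permutation p = 0.3). In equal lists the order turned, with 1, 0 and 1 at day 0 and 1, 3 and 3 at day 1, and the days overlapped at 1 peak (exact permutation p = 0.3).

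No Nfix region was in all 6 deposited lists. The one in all 3 day 1 lists was chr8:84722824-84723473, with fold enrichment of 5.88, 4.2 and 5.22 at day 1, 5.45 and 5.53 in day 0 replicates 1 and 2, and no peak in day 0 replicate 3. This region and the other Nfix regions of this paragraph were picked after their values were seen. The strongest by mean day 0 fold enrichment, chr8:84742211-84743077, had 9.22, 6.96 and 8.53 at day 0, 3.95 in day 1 replicate 1 and no peak in the other 2 day 1 lists. Both day 0 only regions of the deposited lists were weaker, and the higher of them, chr8:84773927-84774130, beside the listed start shown above, had 7.71, 6.12 and 7.82. At the upper end of Nfix a summit within 1 kb was called in day 0 replicate 1 only.

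Across the family, 11 of 73 regions were day 0 only in the deposited lists, 15.1% against 17.5% of all regions, and 0 were day 1 only, against 0.607%. Regions in all 6 lists were 6 of 73 NFI regions, 8.22%, against 13.3% of all regions in the deposited lists, and 3 of 26, 11.5%, against 22.8% in the equal lists. These shares are descriptions without a test.

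Heights could be compared at the 6 NFI regions that all deposited lists called, 4 at Nfia and 1 each at Nfib and Nfic, and none of them passed the test. limma was fitted to the log2 summit pileup of all 9136 such regions, each library scaled to its median, with Benjamini-Hochberg adjustment at 0.05. It called 706 regions higher (7.73%) and 629 lower (6.88%) at day 1, and 0 of the 6 NFI regions. An unadjusted p under 0.05 from limma was found at 4 of the 6 and at 2431 of all 9136. No other tool was run. The median log2 change was 0.06 over all shared regions and -0.11 over the 6.

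Day 1 values were above those of day 0 in all libraries at 2 of the 6. How many of all shared regions kept their days apart, in either direction, was not counted. At Nfib chr4:82513080-82513436 the scaled log2 heights of day 0 (-0.41, -1 and -1) all lay below those of day 1 (-0.26, 0 and -0.24). The difference was 0.64 (SE 0.25, 95% interval 0.13 to 1.14), with a limma adjusted p of 0.0815. At Nfia chr4:98104066-98104631, the strongest NFI region, the heights were 0.50, 0.32 and 0.77 against 0.96, 0.86 and 0.88, a difference of 0.37 (SE 0.17, 95% interval 0.02 to 0.72, limma adjusted p = 0.155). Both directions are relative to the other shared regions.

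Day 1 values were below at the Nfia regions near 173 kb and 290 kb from the lower gene end. Nfia chr4:97751063-97752184 had heights of -0.41, -0.30 and -0.68 at day 0 and -1.17, -1.46 and -0.70 at day 1, a difference of -0.65 (SE 0.27, limma adjusted p = 0.103) with no overlap. Nfia chr4:97868220-97869294 had -0.32, -1.09 and -0.19 against -0.85, -1.65 and -1.11, a difference of -0.67 (SE 0.28, limma adjusted p = 0.111), and the days overlapped through day 0 replicate 2. Under quantile normalisation both of these passed, at -0.75 (limma adjusted p = 0.0487) and -0.85 (limma adjusted p = 0.0353). That scaling called 554 of all 9136 shared regions higher and 671 lower. The day 1 summit pileups of both Nfia regions were low, at 8, 8 and 8 and at 10, 7 and 6. The lowest pileups of any peak in these libraries were 4, 4 and 5. The other shared regions differed little: -0.13 at Nfia chr4:97772102-97772601 (95% interval -0.54 to 0.27) and -0.09 at Nfic chr10:81432791-81433196 (95% interval -0.45 to 0.28). Per 1000000 fragments, the median of all shared regions moved to -0.15, the Nfib region stood at 0.42 and the strongest Nfia region at 0.16, and the 2 lower Nfia regions at -0.86 and -0.88. Where a mean pileup of at least 20 was required, 397 of 6439 regions were called higher and 523 lower. Of the NFI regions 3 remained and 0 were called. The Nfib region and the 2 lower Nfia regions were not among these 3.

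Which libraries entered the fit decided some calls. Without day 1 replicate 3 the Nfib region was called higher, at 0.78 (limma adjusted p = 0.0349). Of all 12469 regions in that fit, 1132 were called higher and 1141 lower. Without day 0 replicate 2 Nfia chr4:97868220-97869294 was called lower, at -0.96 (limma adjusted p = 0.042). There 523 of all 9232 regions were called higher and 463 lower. Without day 1 replicate 1, 9 NFI regions could be compared: Nfia chr4:98003965-98004619 was called lower at -0.98 (limma adjusted p = 0.0134), and Nfix chr8:84725903-84726192 higher at 1.07 (limma adjusted p = 0.00837). In that fit 740 of all 9663 regions were called higher and 693 lower. Neither this Nfia nor this Nfix region had a peak in day 1 replicate 1, and only leaving that library out made them comparable. At the Nfix region the unscaled pileups were 16, 11 and 10 at day 0 and 18 and 10 in day 1 replicates 2 and 3.

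**Figure D3:**
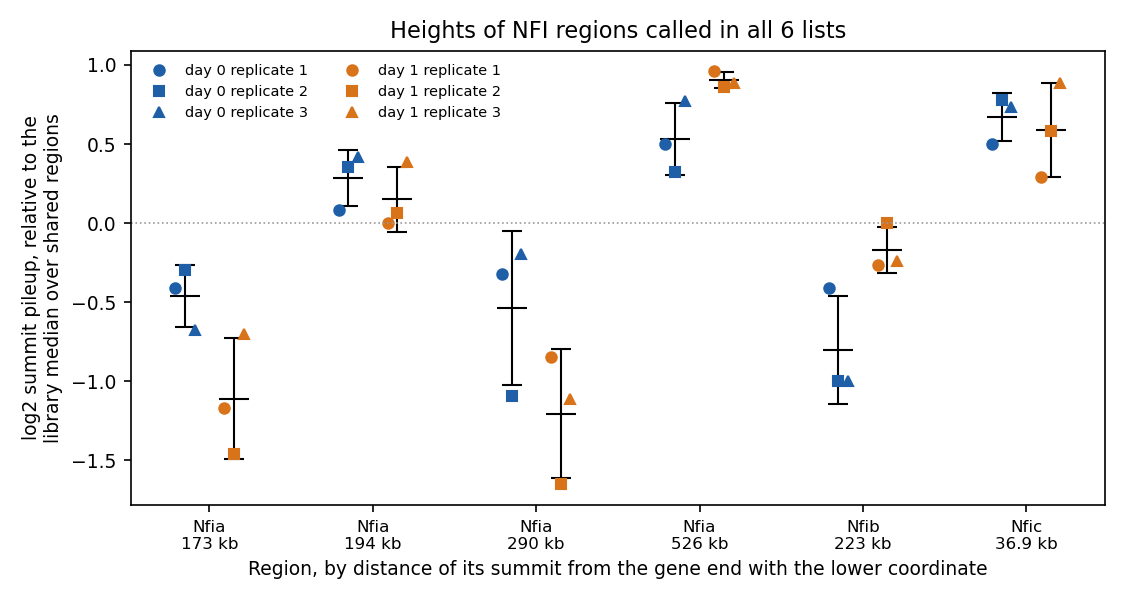
Scaled log2 summit pileup at the 6 NFI regions called in all 6 lists. Points are libraries (blue day 0, orange day 1; the marker shape gives the replicate number), long bars means and short bars 1 SD over 3 libraries, and 0 is the library's median over 9136 shared regions. Orange points lie above blue at Nfia 526 kb and Nfib 223 kb and below at Nfia 173 kb.

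The strength of NFI peaks was also set against other peaks of the same list. The rank of a peak is the percent of its list that it exceeds in −log10 q. A longer list adds weak peaks at the bottom and so raises the rank of the others, and for that reason ranks are compared within a library and not between the days. At day 0 the median NFI rank was 52.7%, 52.7% and 44.7%, where all peaks over 1 kb from a gene end had medians of 44.9%, 44.5% and 44.9%. In the day 1 libraries the NFI medians of 40.8%, 27.5% and 25.8% stood beside 40.1%, 38.8% and 39% for those peaks. NFI peaks thus had the higher median in day 0 replicates 1 and 2, the lower in day 1 replicates 2 and 3, and a median within 1 point in the other 2 libraries. The day 1 medians rest on 20, 29 and 11 NFI peaks.

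Within a library the members took different places. Nfic peaks ranked highest in day 0 replicates 1 and 2 and in day 1 replicate 1, with medians of 77.1%, 62.5% and 63.4%, and its 1 peak in day 1 replicate 3 ranked at 82.8%. Nfix peaks ranked lowest in day 0 replicates 1 and 2, at 34.1% and 31.8%, and in day 1 replicates 1 and 3, at 18.1% and 21.9%, with 53.1% in day 1 replicate 2 from 4 peaks. Nfia had the highest median in day 0 replicate 3, at 55.1%, and the lowest in day 1 replicate 2, at 21.3%. Nfib had the lowest in day 0 replicate 3, at 35.5%.

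**Figure D4:**
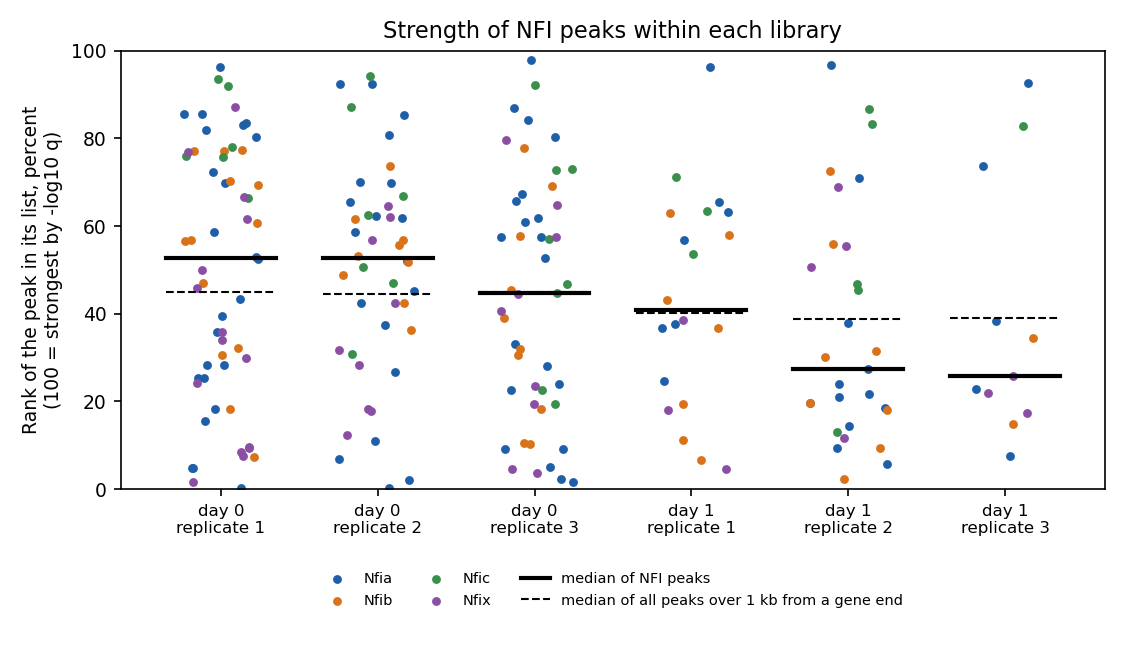
Rank of every NFI peak within its own list. The vertical axis is the percent of the list's peaks that are weaker by −log10 q, colours are the 4 genes, the solid bar is the median of the NFI peaks and the dashed bar the median of all peaks over 1 kb from a gene end. The solid bar lies above the dashed one in day 0 replicates 1 and 2, within 1 point of it in day 0 replicate 3 and day 1 replicate 1, and below it in day 1 replicates 2 and 3.

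Genes that NFI proteins are known to work with or act on were counted in the same way. Of 12 adipogenic partners, 6 (Pparg, Cebpa, Ebf2, Ppargc1a, Klf4 and Rxra) had more deposited peaks in every day 0 than every day 1 library and 0 the reverse, against 33.7% and 0.177% of genes. Of the 6, Pparg, Ebf2, Ppargc1a and Rxra had a mean of at least 5 peaks per list. So did Cebpb, Prdm16 and Zfp423, whose days overlapped. Among all genes with such a mean the day 0 share was 85.2%. Per 10000 peaks 1 was above at day 0 and 3 at day 1, against 13.7% and 21%. Pparg, Rxra and Zfp423 are given in detail because they had the most day-only regions of this list. Their region shares are thus those of picked genes and only describe them. Pparg, the master regulator of fat cell formation, had 12, 8 and 7 peaks against 4, 3 and 3, and 5 of its 15 regions were day 0 only, where 17.5% of all regions were. In equal lists Pparg had 2, 3 and 3 against 1, 1 and 3, with 2 day 0 only and 1 day 1 only among 7 regions, where all regions gave 9.11% and 5.71%. Rxra, the dimer partner of PPARγ, had 19, 16 and 13 against 4, 6 and 2, with 5 day 0 only among 26 regions, and in equal lists 3, 2 and 3 against 1, 4 and 2. Zfp423, a preadipocyte commitment factor, had 17, 13 and 11 against 8, 11 and 5, with 3 day 0 only and 1 day 1 only among 27 regions of the deposited lists, against 17.5% and 0.607% of all regions. In equal lists Zfp423 had 3, 2 and 2 against 3, 3 and 5 and no region of either class. Of the 12 genes, 3 (Pparg, Ebf2 and Ppargc1a) had 1 day 1 only region each in these lists. As many, 3 (Pparg with 2, Cebpd and Klf4 with 1 each), had day 0 only regions there. The share of all genes with such a region was not computed.

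Among 12 brown fat and adipocyte genes, 1 was above at day 0 (Cox7a1) and 1 above at day 1 (Cidec) in deposited counts, against 33.7% and 0.177% of genes. Per 10000 peaks 1 was above at day 0 and 2 at day 1 (Lpl and Cidec), against 13.7% and 21%. Cidec, which encodes a lipid droplet protein, had 1, 0 and 0 peaks at day 0 and 3, 2 and 2 at day 1. It held the list's 1 day 1 only region of the deposited lists, and in equal lists had 0, 0 and 0 against 1, 1 and 2. In the deposited lists 3 genes (Cox7a1, Adipoq and Cd36) had a day 0 only region. Over all regions, 17.5% were day 0 only and 0.607% day 1 only there. Adipoq had 4, 4 and 2 deposited peaks at day 0 against 2, 2 and 0 at day 1. In equal lists Adipoq held 1 day 0 only region and Fabp4 1 day 1 only region, where all regions gave 9.11% and 5.71%. No region was assigned to Ucp1, whose product uncouples mitochondria to make heat. Of 8 muscle genes, 3 (Pax7, Des and Myh3) were above at day 0 and 0 at day 1 in deposited counts, against 33.7% and 0.177% of genes. The same 3 were above at day 0 per 10000 peaks, against 13.7%. For Pax7 (3, 1 and 1 peaks at day 0) and Myh3 (6, 2 and 2) dividing by list length could not change the call. Both had 0 peaks in every day 1 library, as did Cox7a1 of the list before, with 1, 1 and 1 at day 0. Des, which encodes the muscle filament desmin, had 6, 5 and 4 deposited peaks against 1, 2 and 0, and none in the equal lists. Myog had no region and Myod1 1 peak, in day 0 replicate 1.

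The genes most like each member were sought by the distance between counts of the 6 equal lists, summed as a Euclidean distance over the libraries. Adk had the same 6 counts as Nfib (1, 1 and 2 at day 0, 3, 2 and 2 at day 1), and Nmnat3 the same as Nfix. The closest to Nfic was Zfand6, 1 peak apart in 1 library. Nfia had no near match, since its counts are high: Camk1d came closest at a distance of 2.65, with 6, 6 and 5 peaks at day 0 and 4, 2 and 5 at day 1, followed by Pxdn and Fos at 2.83 each. Counts this small are matched by many patterns, and the 6 libraries share depth and list length across genes.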

How the data were processed

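The 6 ATAC-seq libraries (3 per day) were read as peak lists. Libraries were made with the TruePrep kit, per the labels' protocols. The authors called peaks per library with MACS2 2.2.7.1 on paired-end fragments without a control at a q cutoff of 0.05, per the file headers. The build was mm10, and Bowtie2 2.4.4, SAMtools 1.15.1, Trim Galore 0.6.7, deepTools 3.5.1, DiffBind 3.8.4 and HOMER 4.11 are also named, with no role, per the submitters' processing notes. The deposited pileup is a signal, the fragments over the summit, not scaled to depth. The deposited −log10 p and −log10 q values and the deposited fold enrichment, a ratio, compare it with the local background of the same library, so they vary with depth. These values are the authors' own.

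Autosomal, X and Y peaks were kept and joined into regions at 1 bp overlap (Python 3.11.15, pandas 2.3.3). Groups came from sample titles. Depth was read as fragments in the headers. Per-library values were compared by exact two-sided permutation. Heights were compared by limma 3.58.1 (R 4.3.3) with trend, no pseudocount and no filter beyond a call in all 6 lists, and the fit was tested on simulated data. Alternatives were other list cuts, assignments, scalings, left-out libraries and a replicate block. The labels do not say whether replicate numbers pair the libraries. Deviations of same-numbered libraries correlated at -0.0365, 0.0544 and 0.00808, which did not show pairing and cannot exclude it. Gene spans came from RefSeq GRCm38.p6, without strand or exons. The named regions are those present on 1 day only in equal lists, those at gene ends, the strongest shared one per member and those past the limma threshold. Outside that rule, the remaining regions called in all 6 lists and those nearest to the start windows are also named. Others are said to be picked later. The members and all lists were chosen with earlier results of these data known.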

Additional observations from a re-analysis of the deposited data

How the results depend on the processing

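The equal-list difference of the family (day 1 minus day 0, 1.33 peaks per library) changed sign with the choice of peaks: it was -29.7 with all deposited peaks, -28 with peaks of −log10 q of at least 5, -1.33 with lists shortened to 6278, and -0.5 with day 1 replicate 3 left out and lists of 20069. It was -10.7 with peaks of at least 2 fragments per 1000000, an alternative chosen after seeing the data. Leaving out 1 library gave 0 to 2.5. The share per 10000 peaks (-0.575) ranged from -1.61 to 0.242 without 1 library, the highest without day 1 replicate 3, and was -2.93 at −log10 q of at least 5 (10.7 against 7.82, exact permutation p = 0.1). At that threshold the Nfia share (-0.441) became -1.26 (4.5 against 3.24, exact permutation p = 0.1). The Nfix share (-0.513) became -1.05 there (1.92 against 0.868, exact permutation p = 0.3). The Nfib share (0.494) became -0.749 at that threshold and -0.0318 with summits inside the gene only. The Nfic share (-0.116) became 0.128 at that threshold and -0.45 to 0.226 without 1 library, being positive without day 0 replicate 3 (0.106) or day 1 replicate 3 (0.226).

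The single day 0 only region (of 26, with 9.11% of all regions in the class) became 11 of 73 with all deposited peaks (17.5%), 15 of 54 at −log10 q of at least 5 (22.2%), 3 of 26 where 2 of 3 libraries sufficed (15.2%), 4 of 39 with day 1 replicate 3 left out and longer lists (10.8%, added after seeing the data), and 1 to 2 without 1 library. The 0 day 1 only regions (5.71%) became 5 of 26 where 2 of 3 libraries sufficed (12.6%), 4 of 39 with longer lists (8.49%) and 0 to 2 without 1 library. The 4 members above at day 0 remained 4 without any 1 library and were 0 per 10000 peaks and 0 in equal lists; these settings were chosen after seeing the data. The 0 called heights became 2 under quantile normalisation and 0 to 2 without 1 library. Quantile normalisation called 554 of all 9136 shared regions higher and 671 lower. Without day 1 replicate 1, the setting with 2 calls, 740 of all 9663 regions were higher and 693 lower. The Nfic height ranged from -0.17 to 0.06 without 1 library, positive without day 1 replicate 1. The cause of these shifts was not tested.

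With the replicate number as a block the family differences were 1.33 (exact sign-flip p = 0.5) and -0.575 (exact sign-flip p = 0.75), where 3 pairs cannot go below 0.25, and 0 heights were called. Depth limits all comparisons of presence: a missing peak in a day 1 list is not a closed site.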
